A study of Mus musculus with 46 samples.

Results

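The genes that write and remove DNA methylation were followed through mouse synovial sarcomas: the methyltransferases Dnmt1, Dnmt3a and Dnmt3b, the Dnmt1 partner Uhrf1, and the dioxygenases Tet1, Tet2 and Tet3. They were taken by name, for their known roles, as 7 of the 56980 genes of the hSS2 count table and of the 56941 genes of the hSS1 table, and Mki67, a marker of cycling cells, served as a comparison axis. RNA-seq had been run on 46 whole fresh-frozen tumours. The hSS2 tumours express the human fusion SS18::SSX2, and the hSS1 tumours express SS18::SSX1, in each case from the Rosa26 locus after TATCre protein, a cell-permeable Cre recombinase, was injected into the limb at 8 days of age. The hSS2 groups were control tumours (13), and tumours whose mice also carried a floxed Pbrm1 (8), Arid1a (8) or Arid1b (8) gene, called Pbrm1-fl, Arid1a-fl and Arid1b-fl below. The hSS1 groups were control (5) and Pbrm1-fl (4). PBRM1 belongs to the PBAF chromatin remodelling complex, while canonical BAF contains either ARID1A or ARID1B. The same Cre injection turned on the fusion and deleted the floxed gene, so that controls carried the fusion and had received Cre as well, and any cell that Cre had not reached kept the floxed gene intact. Both sexes were used, of a mixed CB57Bl/6-svJ strain and 2 to 6 months old, and the age at harvest of each tumour was not given in the sources used here.

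DNMT3A and DNMT3B place methyl groups on unmethylated CpG sites, and DNMT1 copies the pattern to the new strand after each replication. UHRF1 binds the half-methylated CpG sites that replication leaves and brings DNMT1 to them. TET1, TET2 and TET3 oxidise 5-methylcytosine, the first step of its removal. Dnmt1 and Uhrf1 are known as genes of dividing cells, whose transcription is tied to entry into S phase through E2F factors. RNA levels alone were measured here, and neither DNA methylation nor enzyme activity was.

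The 5′ ends of the genes were searched first, since dividing cells are the axis of much that follows. RefSeq windows on GRCm38.p6 of 250 bases before to 50 bases after each annotated start were available for all 7 genes, 12 windows in all, and for Mki67. Letters of the E2F type (TTTGGCGC, TTTCCCGC, TTTGCCGC or TTTCGCGC, on either strand) were found in 744 of all 32851 windows, or 2.26%. Among the members they lay only in 1 Dnmt1 window, with 2 matches, and in 1 Uhrf1 window, with 1 match, and the Mki67 window had none. The stretches that hold the shared letters TTTCGCGC are shown because these are the members that will be seen to follow Mki67 most closely. They are chr9:20952809-20952868 on the minus strand and chr17:56304102-56304161 on the plus strand, and capitals mark the match, which in Dnmt1 lies on the strand opposite to the gene.
Dnmt1: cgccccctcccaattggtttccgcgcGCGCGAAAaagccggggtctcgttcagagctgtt
Uhrf1: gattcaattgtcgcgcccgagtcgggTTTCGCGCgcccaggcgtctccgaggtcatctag
The match began 219 bases before the start in Dnmt1 and 185 bases before it in Uhrf1. A match of letters is a description and was not tied to binding by any measurement here. CpG pairs were dense in most of these windows, with 57 in that of Tet2, 47 in the richest of Dnmt3a, 33 in the richest of Dnmt1 and of Uhrf1, 30 in Dnmt3b, 22 in Tet3 and 17 in Tet1, beside a median of 7.0 over all windows. Each of the E2F-type words itself holds a CpG pair. The 2.26% is a share of all windows, and that among windows this rich in CpG was not computed.

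Levels are in counts-per-million of the TMM-scaled library (CPM). Total counts per tumour ran from 10137668 to 21294657. The targeted gene fell by 1.27 on the log2 scale for Pbrm1 (adjusted p = 4.2e-12) and by 0.95 for Arid1a (adjusted p = 7.0e-05) in the hSS2 tumours by edgeR. The corresponding values of -0.80 for Arid1b (adjusted p = 0.145) and of -0.75 for Pbrm1 in hSS1 (adjusted p = 0.193) did not pass. Arid1b-fl replicates 2, 4 and 7 had 291, 347 and 232 CPM of Arid1b, inside the control range of 222 to 686 CPM, and replicate 4 lay above the control median of 323 CPM. Arid1a stood at 238 CPM in hSS2 control replicate 9, inside the Arid1a-fl range of 229 to 276 CPM and below the 422 to 587 CPM of all other hSS2 controls, which goes against its label. Tle1, a synovial sarcoma marker, was at 165 to 473 CPM in every tumour. In the rest of a list of 10 such markers, Cd99l2 ran from 39.8 to 123 CPM, Bcl2 from 8.12 to 74.1 and Sox11 from 7.01 to 432. The epithelial ones were low in some tumours. Muc1 ran from 2.69 to 46.3 CPM, Epcam from 0.932 to 207, Krt18 from 0.0502 to 56.2 and Krt8 from 0.0 to 95.3. Krt19 ran from 0.0 to 16.45 CPM and Krt7 from 0.0 to 1.10 CPM. The summed level of 13 skeletal muscle markers ran from 5.67 to 52290 CPM across the hSS2 tumours, so the tissue taken with the tumour varied widely, and in such whole tumours fewer cells of a type and less RNA per cell cannot be told apart. The mouse number ranges in the sample titles (under 1000, 1000 to under 2000, and 2000 or above) coincided with the floxed gene. All hSS2 Pbrm1-fl mice were numbered 2000 or above, all Arid1a-fl mice under 1000, and all Arid1b-fl and hSS1 Pbrm1-fl mice in between, and only the control groups spanned more than 1 range.

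All 7 genes were expressed in all 46 tumours. Per kilobase of exon, the mean level in hSS2 controls was 18.2 ± 6.52 CPM for Dnmt1 (SD, n = 13). Tet3 followed with 14.5 ± 3.07 CPM per kilobase, Dnmt3a with 13.1 ± 3.31 and Tet2 with 11.7 ± 3.79. Uhrf1 stood at 8.81 ± 5.95 CPM per kilobase, Tet1 at 6.56 ± 3.03 and Dnmt3b at 2.04 ± 0.747. Neighbours in this order differed by less than the larger of their SDs until the step from Tet1 to Dnmt3b. Dnmt3b was the lowest of the 7 per kilobase in 36 of 37 hSS2 tumours and in 9 of 9 hSS1 tumours, the exception being hSS2 control replicate 12, where Uhrf1 was lowest. Dnmt1 was the highest in 31 of 37 hSS2 and in 7 of 9 hSS1 tumours. Dnmt3a exceeded Dnmt3b per kilobase in every tumour, by 2.55-fold to 12.9-fold in the hSS2 groups. Among the erasers, Tet2 exceeded Tet1 per kilobase in 28 of 37 hSS2 tumours but in 2 of 9 hSS1 tumours. In hSS1 controls the order per kilobase was Dnmt1 (33.4 ± 10.7), Tet3 (26.3 ± 4.84), Uhrf1 (24.9 ± 7.63), Dnmt3a (17.1 ± 5.70), Tet1 (10.7 ± 0.873), Tet2 (7.99 ± 2.26) and Dnmt3b (3.40 ± 0.652; SD, n = 5). The tables were scaled separately, and levels of hSS1 and hSS2 tumours are set side by side without a test.

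**Figure D1:**
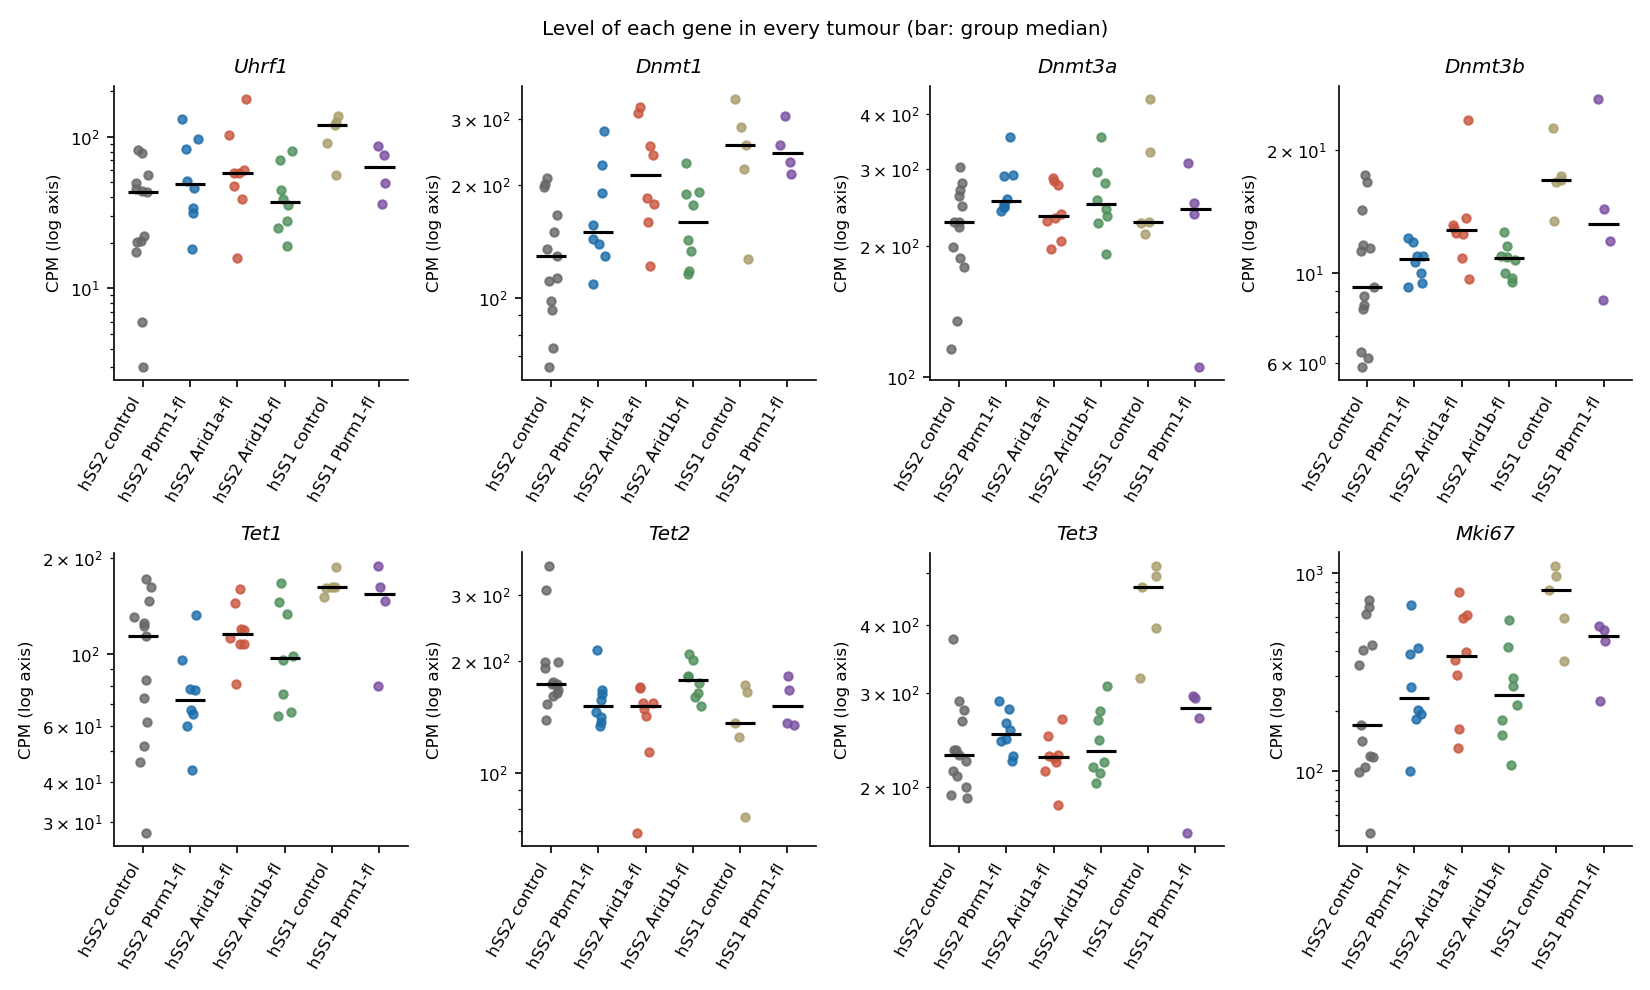
Level of each of the 7 genes and of Mki67 in every tumour, in CPM on a log axis, by genotype group; each point is 1 tumour and the bar is the group median. Uhrf1 and Mki67 spread over the widest ranges in the hSS2 groups, and the 4 hSS1 Pbrm1-fl tumours lie below all 5 hSS1 controls for Tet3.

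Of the maintenance pair, Uhrf1 had the widest range of the 7 genes in hSS2 tumours. It ran from 3.04 CPM through a median of 43.4 to 82.0 CPM in the 13 hSS2 controls. It ran from 18.1 through 48.5 to 130 CPM in Pbrm1-fl, from 15.8 through 57.4 to 177 CPM in Arid1a-fl, and from 19.1 through 37.2 to 81.1 CPM in Arid1b-fl. The highest hSS2 tumour was 58.2-fold above the lowest, against 16.5-fold for Mki67, and the 4 groups overlapped. Lowest were hSS2 control replicates 12 and 13, at 3.04 and 5.95 CPM, and the lowest of the others had 15.8 CPM. For Mki67 these controls had 48.5 and 98.6 CPM, and the lowest of the others had 99.5 CPM. In hSS1 controls Uhrf1 was at 125.0, 56.4, 91.6, 137 and 120 CPM, and in hSS1 Pbrm1-fl at 36.1, 49.6, 87.7 and 76.3 CPM. Dnmt1 spread over less: 65.7 to 209 CPM in hSS2 controls (median 130), 109 to 279 in Pbrm1-fl (median 150), 122 to 323 in Arid1a-fl (median 213) and 116 to 229 in Arid1b-fl (median 160). In hSS1 it was at 256, 128, 221, 339 and 287 CPM in controls and at 215, 256, 231 and 305 CPM in Pbrm1-fl. Dnmt1 exceeded Uhrf1 per kilobase in every tumour.

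The de novo methyltransferases came next. Dnmt3a ran from 116 through 226 to 303 CPM in hSS2 controls, and its medians were 253, 234 and 249 CPM in Pbrm1-fl, Arid1a-fl and Arid1b-fl. Dnmt3b ran from 5.88 through 9.21 to 17.3 CPM in hSS2 controls, with medians of 10.8, 12.7 and 10.8 CPM in the same 3 groups. The erasers differed in spread. Tet1 ran from 27.7 through 115 to 172 CPM in hSS2 controls, a 6.20-fold range. Tet2 ran from 138 through 174 to 358 CPM, and Tet3 from 191 through 229 to 378 CPM, the last in the library labelled hSS2 control replicate 9. Tet3 had the narrowest range of the 7 over the hSS2 tumours, 2.03-fold between the highest and the lowest.

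A pair of hSS2 controls, replicates 12 and 13, stood apart in several members at once. They had the lowest Uhrf1 (3.04 and 5.95 CPM) and Dnmt1 (65.7 and 73.7 CPM) of the controls and, for Tet2, 309 and 358 CPM. Replicate 12 also had the lowest Mki67, at 48.5 CPM, and replicate 13 had 98.6 CPM. Their summed proliferation markers were 283 and 443 CPM and their summed skeletal muscle markers 1920 and 9052 CPM, the latter inside the control range of 13.4 to 52290 CPM. Both were numbered under 1000, the range that also holds the Arid1a-fl tumours. Several results below are given with and without these controls, but not all. The Uhrf1 and Dnmt3b differences in Arid1a-fl tumours are given only with them.

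The first genotype question was whether deletion of Arid1a moved these genes. Dnmt1 was higher in Arid1a-fl than in control hSS2 tumours. By replicate the 8 Arid1a-fl tumours had 323, 241, 160, 185, 179, 122, 255 and 312 CPM. Of these, 7 lay above the control median and 4 above every control. The difference was 0.73 on the log2 scale (SE 0.20, 95% interval 0.31 to 1.14), a 1.65-fold higher level, with an adjusted p of 0.0466 by edgeR's quasi-likelihood test. Dnmt1 was the only 1 of the 7 genes that passed, beside 3.17% of all 20083 genes tested. Mki67 differed by 0.45 (SE 0.43, adjusted p = 0.539), and of 26 proliferation genes 2 rose (Mcm4 and Gins1), with 17 at an unadjusted p under 0.05 (23.0% of all genes) and a median difference of 0.78 against -0.04 over all genes. Some other lists moved the other way, with medians of -2.99 for 5 adipocyte, -2.73 for 4 lymphocyte and -1.37 for 13 skeletal muscle markers, none of them called. The median was -0.71 for 10 synovial sarcoma markers, of which 1 was called (Muc1, lower). At an unadjusted p under 0.05 by edgeR were 3 adipocyte, 3 lymphocyte, 0 skeletal muscle and 4 synovial sarcoma markers. With Mki67 as a covariate the Dnmt1 difference was 0.51 (adjusted p = 0.0427). The call sat at the threshold, and it was lost without control replicates 12 and 13 (0.61, adjusted p = 0.0870). Against the controls of the same mouse number range, which hold that pair, Dnmt1 was called. With that range and without the pair it was not, where edgeR called 0 of 19958 genes. Leaving out 1 tumour at a time gave differences of 0.63 to 0.82 and kept the call in 19 of 37 fits. It was lost without Arid1a-fl replicate 1, 2, 4, 5, 7 or 8 (adjusted p from 0.0509 to 0.126) and without control replicate 4, 5, 7, 8, 9, 11, 12 or 13 (from 0.0521 to 0.0651). It was also lost without Pbrm1-fl replicate 4, 5 or 6 or Arid1b-fl replicate 4, tumours that are in the fit but in neither group (adjusted p up to 0.0517).

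Tet2 was the other gene near the threshold in Arid1a-fl tumours. It was at 114, 142, 154, 148, 154, 168, 170 and 69.1 CPM by replicate, all 8 below the control median and 2 below every control. The difference was -0.49 (SE 0.15, 95% interval -0.80 to -0.19), with an adjusted p of 0.0587 by edgeR and of 0.0272 by DESeq2. Without control replicates 12 and 13, the controls with the highest Tet2, it was -0.30 (adjusted p = 0.148). Against the 5 controls numbered under 1000, which hold replicates 12 and 13, it was -0.79 and passed (adjusted p = 0.00659), and against the 3 left without that pair it was -0.36 (adjusted p = 0.413). Without control replicate 1, 3 or 10 or Arid1a-fl replicate 6 it passed in edgeR, with adjusted p-values of 0.0384 to 0.0498. Uhrf1 had a difference of 0.89 (SE 0.43, adjusted p = 0.211) and Dnmt3b of 0.38 (SE 0.17, adjusted p = 0.174, all 8 tumours above the control median). Both rested in part on Arid1a-fl replicate 1, without which they were 0.53 and 0.22, and they were 0.32 and 0.22 with Mki67 as a covariate and 1.5 and 0.65 against controls of the same range, uncalled in each case. Dnmt3a (0.15), Tet1 (0.23) and Tet3 (-0.08) had adjusted p-values of 0.511 to 0.638.

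Pbrm1-fl tumours of the hSS2 background were compared with the same controls. None of the 7 genes passed, where 7.35% of all genes did, and Dnmt3a and Tet2 had unadjusted p-values under 0.05, as 22.4% of all genes had. Dnmt3a ran from 241 through 253 to 354 CPM, all 8 tumours above the control median, with a difference of 0.31 (SE 0.13, 95% interval 0.04 to 0.58, adjusted p = 0.150). Against the 4 controls with mouse numbers of 2000 or above, which had 247 to 278 CPM of Dnmt3a, the difference was 0.04 (adjusted p = 0.968). Tet2 ran from 133 through 152 to 214 CPM, with 7 of 8 tumours below the control median and a difference of -0.32 (SE 0.15, adjusted p = 0.190). Against the same 4 controls, at 138 to 174 CPM, it was -0.00087 (adjusted p = 0.999). Uhrf1 had the widest interval, with a difference of 0.71 (SE 0.43, 95% interval -0.17 to 1.59, adjusted p = 0.342). Dnmt1 (0.36), Tet1 (-0.39), Tet3 (0.07) and Dnmt3b (0.03) had adjusted p-values of 0.309 to 0.941. Against controls of the same range Uhrf1 differed by 0.26, Dnmt1 by 0.23 and Tet1 by -0.58, all uncalled. Mki67 differed by -0.02 (SE 0.43, adjusted p = 0.989). In DESeq2 none of the 7 passed either.

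In Arid1b-fl tumours none of the 7 genes passed and none had an unadjusted p under 0.05 by edgeR. Of all genes 0.0548% passed and 6.22% had an unadjusted p under 0.05. DESeq2 called none of the 7. The differences ran from -0.15 for Tet2 to 0.28 for Dnmt1, and the 95% interval of Dnmt1 was -0.14 to 0.69. Tet3 had the narrowest interval, -0.18 to 0.22 around 0.02. When the 3 floxed hSS2 groups were compared with each other, none of the 7 passed in any pair. The share of all genes that passed was 12.3% between Pbrm1-fl and Arid1a-fl, 4.37% between Pbrm1-fl and Arid1b-fl, and 0.0996% between Arid1a-fl and Arid1b-fl. The unadjusted p by edgeR was under 0.05 for Tet1 in the first pair (0.0345), as for 26.8% of all genes. It was under 0.05 for Tet2 in the last pair (0.0457), as for 12.5% of all genes.

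In hSS1 tumours Tet3, which lies on chromosome 6, separated the groups. Whether its neighbours on that chromosome differed as well was not tested here. The 5 controls had 492.8, 471.9, 515.7, 319.0 and 395.5 CPM of Tet3 and the 4 Pbrm1-fl tumours had 296, 269, 164 and 293 CPM, so that the groups did not overlap. Every Pbrm1-fl tumour lay below every control for 630 of the 17786 genes tested, or 3.54%. The difference was -0.78 on the log2 scale (SE 0.21, 95% interval -1.26 to -0.30), a level of 0.582 times that of controls, with an adjusted p of 0.154 by edgeR and of 0.0200 by DESeq2. Without 1 tumour at a time it was -0.86 to -0.61. Pbrm1-fl replicate 3 was the lowest hSS1 tumour in Tet3, Dnmt3a (105.5 CPM), Tet1 (79.5 CPM) and Dnmt3b (8.57 CPM). It had 102 CPM of Pbrm1, against 209, 252 and 226 CPM in the other Pbrm1-fl tumours and 275 to 373 CPM in controls. The paper proposes that hSS1 tumours selected for cells that had recombined only 1 floxed Pbrm1 allele. Of the 7 genes none passed by edgeR, where 0.00562% of all genes did, that is 1 gene, and Tet3 and Uhrf1 had unadjusted p-values under 0.05, as 17.2% of all genes had. Uhrf1 had a difference of -0.77 (SE 0.33, adjusted p = 0.275) with all 4 tumours below the control median, and of -0.10 (adjusted p = 0.821) with Mki67 as a covariate. Mki67, at 814, 359, 593, 1082 and 964 CPM in controls and 225, 450, 539 and 513 CPM in Pbrm1-fl, had a difference of -0.82 (SE 0.36, adjusted p = 0.289). Dnmt1 had a difference of 0.03 (95% interval -0.54 to 0.61), and Tet2 of 0.20, Dnmt3b of -0.17, Tet1 of -0.19 and Dnmt3a of -0.34, all with adjusted p-values of 0.626 to 0.964.

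The Pbrm1-fl effect was then compared between the fusion backgrounds in 1 fit over all 46 tumours. The Tet3 effect was lower in hSS1 than in hSS2 by 0.86 on the log2 scale, a difference of effects of -0.86 (SE 0.19, 95% interval -1.25 to -0.47, adjusted p = 0.0144 by edgeR), since Tet3 differed by 0.07 in hSS2 (224 to 290 CPM in Pbrm1-fl, 191 to 378 CPM in controls) and by -0.78 in hSS1. Mean Tet3 was 439 CPM in hSS1 controls and 255.5 CPM in hSS1 Pbrm1-fl, beside 228 to 254 CPM in the hSS2 groups. These levels were scaled within each table and were not tested against each other. Tet3 was the only 1 of the 7 that passed, beside 2.86% of 21725 genes. It passed in all 46 fits that left out 1 tumour, control replicate 9 included, with values of -0.93 to -0.68 and adjusted p-values of 0.00516 to 0.0393. Against controls of the same mouse number range the value was -0.90 and the adjusted p 0.0835. Dnmt3a (-0.66, adjusted p = 0.183), Uhrf1 (-1.49, SE 0.75, adjusted p = 0.273) and Tet2 (0.52, adjusted p = 0.290) did not pass.

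**Figure D2:**
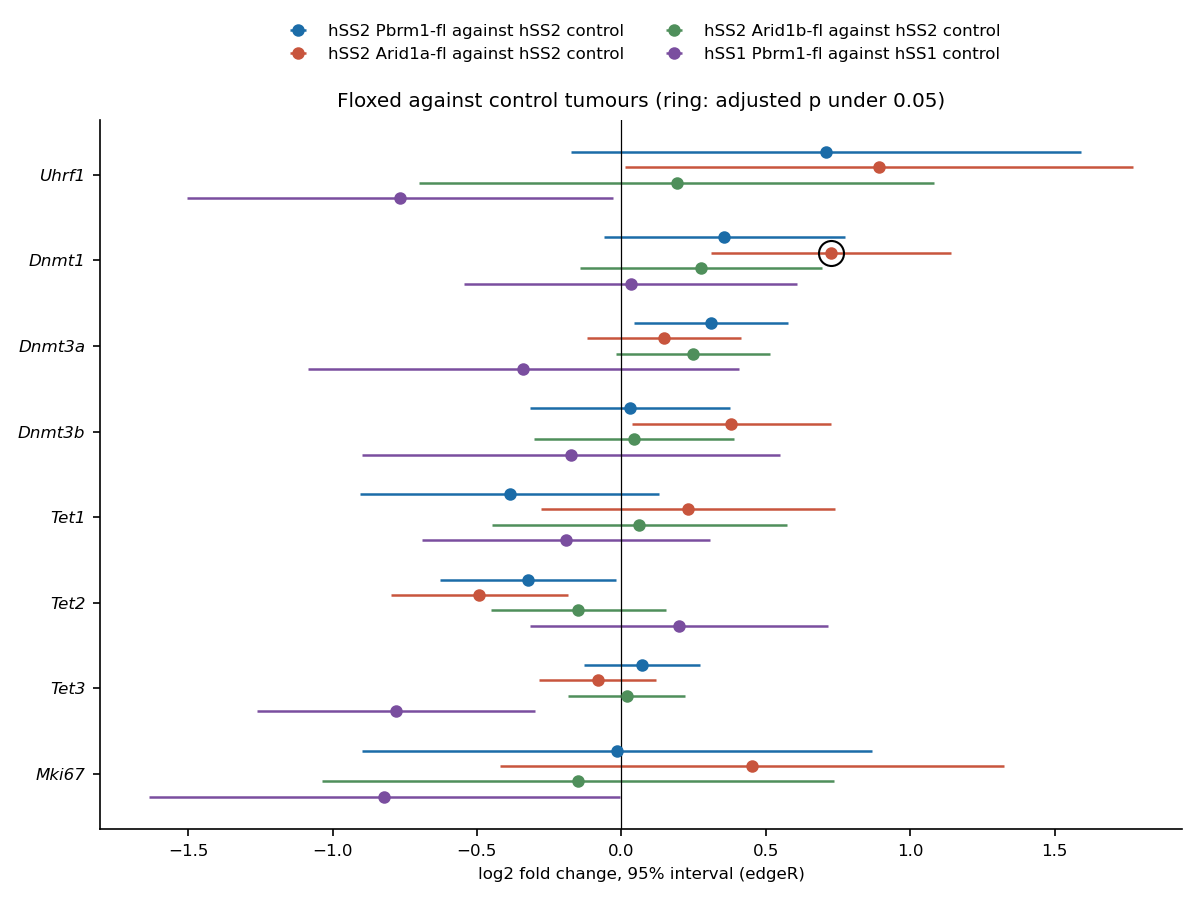
Log2 fold change of each gene in floxed against control tumours, with its 95% interval from edgeR, for the 3 hSS2 comparisons and the hSS1 comparison; rings mark an adjusted p under 0.05. Among the 7 members the ring is on Dnmt1 in Arid1a-fl tumours, at 0.73, and the Tet3 value of -0.78 in hSS1 stands away from the hSS2 values of -0.08 to 0.07.

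The levels were next set against Mki67 at fixed genotype, by testing in edgeR the slope of each gene on the log2 CPM of Mki67 with genotype group in the model. In the 37 hSS2 tumours 5 of the 7 genes passed, beside 16.5% of 20082 genes. Uhrf1 rose by 0.91 log2 units per log2 unit of Mki67 (SE 0.09, adjusted p = 4.9e-10) and Dnmt1 by 0.38 (SE 0.05, adjusted p = 2.4e-07). Tet1 rose by 0.34 (SE 0.08, adjusted p = 0.00273) and Dnmt3b by 0.27 (SE 0.05, adjusted p = 5.5e-05). Tet2 was the only one of the 7 that went down, with a slope of -0.16 (SE 0.05, adjusted p = 0.0234). Dnmt3a (0.13, SE 0.05, adjusted p = 0.0570) and Tet3 (0.06, SE 0.04, adjusted p = 0.251) did not pass. Dnmt3a passed, with adjusted p-values of 0.0228 to 0.0498, without control replicate 1 or 4, Pbrm1-fl replicate 2 or 8, Arid1a-fl replicate 1 or 7, or Arid1b-fl replicate 2, 4 or 5. The slopes of Uhrf1, Dnmt1, Dnmt3b and Tet1 passed in all 37 fits that left out 1 tumour, with the muscle score as a covariate, and with the mouse number range as a covariate. That of Tet2 was lost without control replicate 12 (-0.13, adjusted p = 0.0857) or 13 (-0.12, adjusted p = 0.0624), without both (-0.07, adjusted p = 0.295), and with the range as a covariate (-0.13, adjusted p = 0.0565). Other tissue moved with Mki67 as well. All 5 adipocyte markers fell with it, with a median slope of -1.49, as did 1 of 10 macrophage markers (Cd163) and 1 of 4 tested lymphocyte markers (Cd3e), while 2 of 7 endothelial markers rose (Cdh5 and Kdr). Of 10 synovial sarcoma markers, the epithelial genes Krt8 (-0.96), Krt18 (-0.57) and Muc1 (-0.40) fell, with a list median of -0.39. None of 13 skeletal muscle markers passed, with a median slope of -1.06, and the part of these cells in the members' slopes was not tested beyond the muscle covariate.

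**Figure D3:**
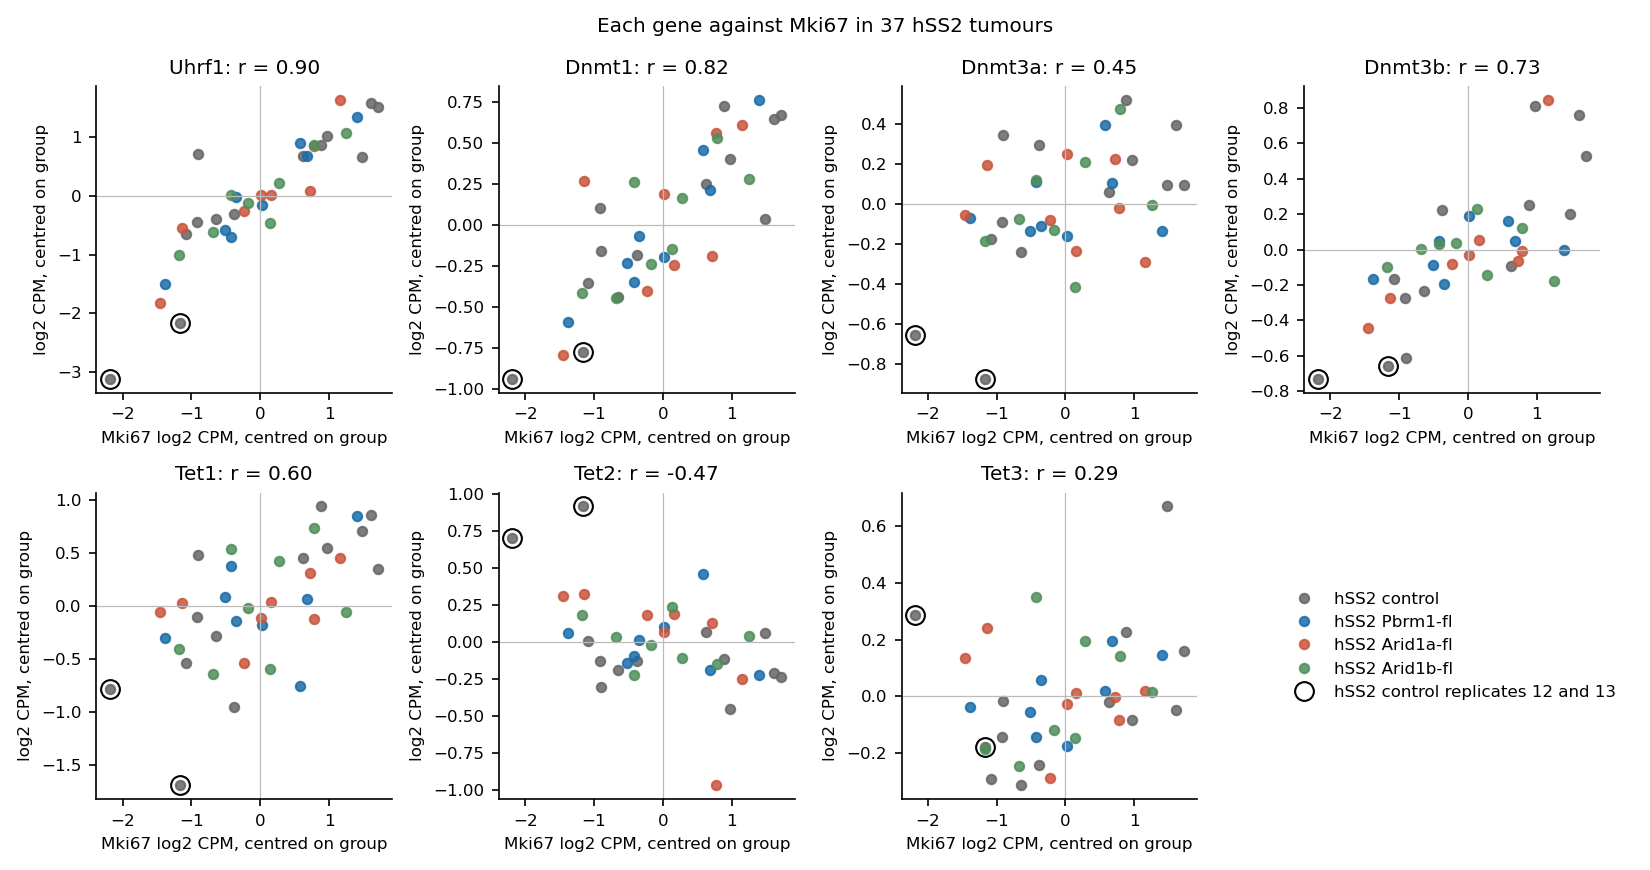
Each of the 7 genes (vertical axis) against Mki67 (horizontal axis) in the 37 hSS2 tumours, both as log2 CPM centred on the mean of the genotype group; each point is 1 tumour, coloured by group, and r is Pearson's. Uhrf1 (r = 0.90) and Dnmt1 (r = 0.82) lie along a line, Tet3 (r = 0.29) does not, and Tet2 (r = -0.47) slopes down.

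Correlations of the same centred levels were computed for 7 relations over the same 37 tumours, with 2-sided permutation tests that shuffled Mki67 within groups. Uhrf1 and Dnmt1 came first by r as by slope, while Dnmt3b stood above Tet1 by r and below it by slope. Pearson's r with Mki67 was 0.90 for Uhrf1 (Spearman's rho 0.90), 0.82 for Dnmt1 (rho 0.80) and 0.73 for Dnmt3b (rho 0.71), each with a permutation p of 1e-05 for r, the smallest the 100000 resamples can give. It was 0.60 for Tet1 (rho 0.61, permutation p = 0.00047), -0.47 for Tet2 (rho -0.44, permutation p = 0.00648), 0.45 for Dnmt3a (rho 0.37, permutation p = 0.0147) and 0.29 for Tet3 (rho 0.34, permutation p = 0.134). For rho, the permutation p was 1e-05 for Uhrf1 and Dnmt1, 8e-05 for Dnmt3b, 0.00037 for Tet1, 0.00875 for Tet2, 0.0359 for Dnmt3a and 0.0575 for Tet3. Among 20082 genes ranked by this r, Uhrf1 was 172nd from the top, Dnmt1 285th, Dnmt3b 424th and Tet1 784th, Dnmt3a and Tet3 were further down at 1838th and 3923rd, and Tet2 stood at the 5.63 percentile from the lowest. Without the 2 tumours farthest from the median Mki67 (control replicates 6 and 12) r was 0.88 for Uhrf1, 0.77 for Dnmt1, 0.66 for Dnmt3b, 0.57 for Tet1, -0.37 for Tet2, 0.36 for Dnmt3a and 0.40 for Tet3. Without control replicates 12 and 13 it was 0.25 for Dnmt3a (permutation p = 0.164) and -0.30 for Tet2 (permutation p = 0.0893), so both of those relations rest on these tumours, while Tet3 had 0.41 (permutation p = 0.0253).

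Within the single groups Uhrf1 kept its relation throughout, with r of 0.87 in controls, 0.97 in Pbrm1-fl, 0.92 in Arid1a-fl and 0.92 in Arid1b-fl. Dnmt1 had r of 0.87, 0.95, 0.60 and 0.77 in the same order. Dnmt3b was uneven, with 0.87, 0.52, 0.78 and -0.05, and Dnmt3a turned sign, with 0.66, 0.23, -0.26 and 0.41. Tet1 was positive in each group (0.75, 0.37, 0.43 and 0.42) and Tet2 negative in each (-0.54, -0.11, -0.64 and -0.23). Tet3 had 0.39, 0.59, -0.45 and 0.37. Within the 3 mouse number ranges, from low numbers to high, r was 0.94, 0.96 and 0.87 for Uhrf1, 0.75, 0.82 and 0.95 for Dnmt1, 0.87, 0.55 and 0.69 for Dnmt3b and 0.70, 0.56 and 0.45 for Tet1. Tet2 had -0.65, -0.29 and -0.13, Dnmt3a 0.51, 0.47 and 0.18, and Tet3 0.22, 0.58 and 0.46. Differences in r between groups or ranges were not tested.

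In the 9 hSS1 tumours the slope was 0.84 for Uhrf1 (SE 0.14, 95% interval 0.53 to 1.15) and 0.59 for Dnmt1 (SE 0.15, 95% interval 0.24 to 0.94). By edgeR their adjusted p-values were 0.102 and 0.319, and none of the 7 genes passed, where 0.0112% of all genes did. Both had unadjusted p-values under 0.05, as 7.13% of all genes had. DESeq2 gave adjusted p-values of 7.8e-06 for Uhrf1 and 0.0222 for Dnmt1, and called none of the other 5. The slopes of Tet1 (-0.03), Tet2 (-0.02), Dnmt3a (-0.06), Dnmt3b (0.10) and Tet3 (-0.30) had intervals that took in 0, and that of Tet1, -0.52 to 0.46, also took in the hSS2 slope.

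**Figure D4:**
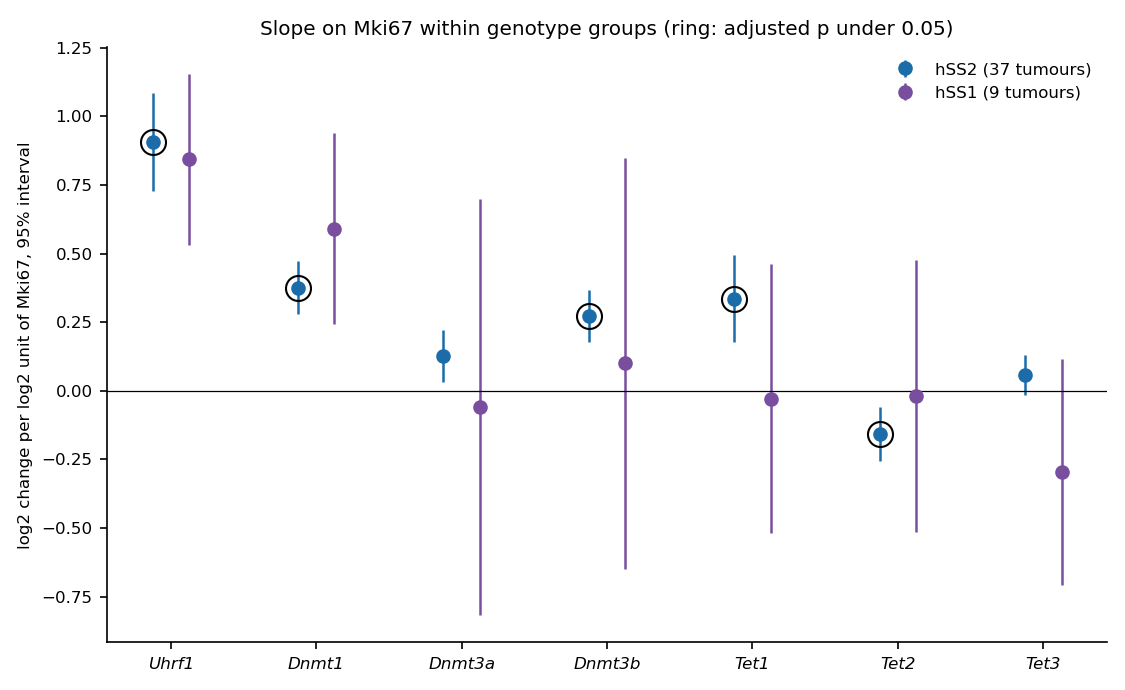
Slope of each gene on Mki67 within genotype groups, in log2 units per log2 unit of Mki67, with 95% intervals from edgeR, for the 37 hSS2 and the 9 hSS1 tumours; rings mark an adjusted p under 0.05. Uhrf1 has the steepest slope in both sets, at 0.91 and 0.84, and the hSS1 intervals of the other genes but Dnmt1 take in 0.

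The 7 genes were also compared with each other over the 37 hSS2 tumours, 21 pairs in all, on the centred levels. Uhrf1 and Dnmt1 moved most closely together, with r of 0.90 (rho 0.88, permutation p = 1e-05) and 0.64 after Mki67 had been regressed from both. Tet2 ran against each of the writers and Tet1, with r of -0.65 with Uhrf1 (rho -0.58, permutation p = 0.00028), -0.58 with Dnmt1 (rho -0.54, permutation p = 0.00048) and -0.58 with Tet1 (rho -0.57, permutation p = 0.00013). After regression on Mki67 these 3 were -0.57, -0.38 and -0.42, and without control replicates 12 and 13 they were -0.41, -0.41 and -0.34. With Dnmt3a it had r of -0.46 (rho -0.28, permutation p = 0.00941) and with Dnmt3b of -0.47 (rho -0.35, permutation p = 0.0176), which were -0.03 and -0.22 without those controls. Tet1 and Tet3 went together, with r of 0.51 (rho 0.55, permutation p = 0.00565), and 0.64 without those controls. Tet2 and Tet3 had r of 0.03 (rho -0.07, permutation p = 0.889). Dnmt3a and Dnmt3b had r of 0.39 (rho 0.30, permutation p = 0.0594), and 0.08 without those controls. All these points share the library-wide scaling.

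**Figure D5:**
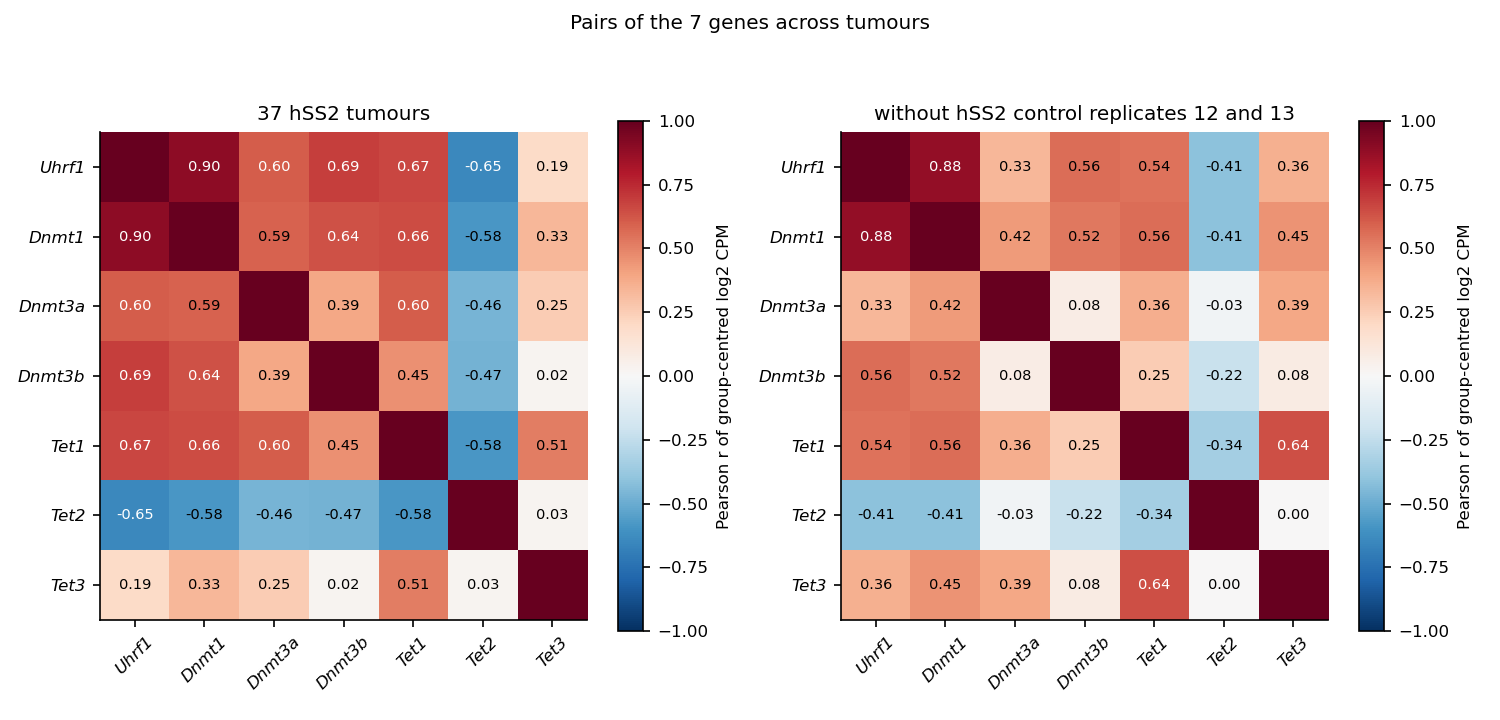
Pearson's r between the centred log2 CPM of each pair of the 7 genes over the 37 hSS2 tumours (left) and without hSS2 control replicates 12 and 13 (right); red is positive and blue negative. The Uhrf1 and Dnmt1 pair stays near 0.9 in both panels (0.90 and 0.88), while the Dnmt3a and Tet2 pair goes from -0.46 to -0.03.

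The genes whose centred level was most like that of each member over the 37 hSS2 tumours were then listed, 3 for each. For Uhrf1 they were Chtf18 (r = 0.98), Cdc6 (0.97), which loads the replicative helicase, and Kntc1 (0.97), a kinetochore gene. For Dnmt1 they were the helicase subunits Mcm5 (0.96) and Mcm2 (0.95) and the polymerase Pole (0.95). The most similar genes of the other members had lower values of r. They were Vrk1 (0.83), Lrr1 (0.83) and Umps (0.82) for Dnmt3b, Man1b1 (0.84), Ddx17 (0.83) and Fbh1 (0.83) for Dnmt3a, and Rhpn2 (0.88), Pnkd (0.87) and Elovl6 (0.84) for Tet1. For Tet2 they were Pias1 (0.81), Traf6 (0.80) and Cdk13 (0.79). For Tet3 they were Atf7ip (0.79) and Zfp282 (0.76), both on chromosome 6 as Tet3 is, and Nsd1 (0.74). These are the highest of many correlations and are given as a description, with no test.

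Other genes of the pathway were taken as lists. Of 24 further genes of the methylation machinery 22 were tested in hSS2. In Pbrm1-fl tumours Cxxc5 rose (0.40, adjusted p = 0.0390) and Uhrf2, a paralog of Uhrf1, fell (-0.50, adjusted p = 0.0296), and the list's median was 0.03 against -0.0042 for all genes, with 7.35% of all genes called. In Arid1a-fl tumours Apex1, a base excision repair endonuclease, rose by 0.83 (adjusted p = 0.0103), and the median was 0.07 against -0.04, with 3.17% of all genes called. None of the 22 passed in Arid1b-fl (median 0.09 against 0.0045) or in hSS1 Pbrm1-fl (median -0.15 against 0.01), where 0.0548% and 0.00562% of all genes did. At an unadjusted p under 0.05 there were 0 and 4, beside 6.22% and 17.2% of all genes. The Pbrm1-fl effect differed between backgrounds for Gadd45a, by -2.65 (adjusted p = 0.0103), beside 2.86% of all genes. On Mki67 in hSS2 6 of the 22 rose and 1 fell, with a median slope of 0.06 against -0.01 and 16.5% of all genes called. The chromatin remodeller Hells rose by 0.52 (adjusted p = 1.5e-08), Cdca7, which brings it to nucleosomes, by 0.53 (adjusted p = 9.5e-07), and Cdca7l by 0.58 (adjusted p = 6.0e-05). Trim28 rose by 0.18 (adjusted p = 0.00131), and Gadd45g fell by 0.21 (adjusted p = 0.0162).

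Of 7 genes from the families of methyl-CpG-binding proteins all were tested. None passed between a floxed group and its controls, with 2, 3 and 2 at an unadjusted p under 0.05 in Pbrm1-fl, Arid1a-fl and Arid1b-fl hSS2 tumours and 1 in hSS1, where 22.4%, 23.0%, 6.22% and 17.2% of all genes had one. On Mki67 in hSS2 Mbd3 rose (slope 0.12, adjusted p = 0.00426), and the zinc finger readers Zbtb38 (-0.15, adjusted p = 3.9e-04) and Zbtb4 (-0.26, adjusted p = 0.00281) fell. Of 17 genes of methyl donor and 2-oxoglutarate metabolism 16 were tested. In hSS2 Pbrm1-fl tumours Shmt2, the mitochondrial serine hydroxymethyltransferase, rose by 0.57 (adjusted p = 0.0252) and Idh1, which makes the TET cosubstrate 2-oxoglutarate in the cytosol, by 0.40 (adjusted p = 0.0264), while the methionine synthase Mtr fell by 0.22 (adjusted p = 0.0335), 3 of 16 beside 7.35% of all genes. In Arid1a-fl tumours Shmt2 rose by 0.61 (adjusted p = 0.0396), beside 3.17% of all genes, and both comparisons share the same controls. None of the 16 passed in Arid1b-fl or in hSS1, where 0.0548% and 0.00562% of all genes did. At an unadjusted p under 0.05 there were 0 and 2, beside 6.22% and 17.2% of all genes. On Mki67 in hSS2 4 of the 16 rose and none fell, beside 16.5% of all genes, with Shmt1 (0.44, adjusted p = 3.5e-04) and Idh2 (0.20, adjusted p = 0.00137) ahead of Ahcy (0.15) and Mtrr (0.11).

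Germline genes that promoter methylation is known to keep silent in somatic cells were read as a further list. Of 20 such genes 19 had a median under 1 CPM in hSS2 tumours and 19 in hSS1 tumours, the exception being Brdt, at 8.06 and 6.81 CPM. Single tumours departed from this. Tex11 reached 61.4 CPM in Arid1b-fl replicate 8, Dazl 26.8 CPM in hSS2 control replicate 10 and Slc25a31 26.4 CPM in Arid1b-fl replicate 2, and these 3 were chosen after their values were seen. Only 2 of the 20 passed the filter on low counts in hSS2 and 1 in hSS1. No floxed group differed from its controls in either of the 2 by edgeR, with 1 at an unadjusted p under 0.05 in Arid1a-fl, as for 23% of all genes. Piwil2 fell with Mki67 (slope -0.58, adjusted p = 0.0296), where 16.5% of all genes passed.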

How the data were processed

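The authors prepared rRNA-depleted, stranded RNA-seq libraries (NEBNext Ultra II Directional) from whole tumours, aligned the reads to mm10 with STAR 2.7.11 and deposited raw read counts per gene from featureCounts 1.6.3, in 1 table for hSS2 and 1 for hSS1. The annotation release, strand setting and treatment of multi-mapping reads were not given in the sources used here. Reads of Dnmt3aos, Dnmt3bos, Gm42567 and B230319C09Rik, on the strand opposite to Dnmt3a, Dnmt3b, Tet2 and Tet3, may therefore not be separate from theirs. On the same strand Mir7081 overlaps Dnmt1, Gm48353 and Gm26479 overlap Tet1, and Mir6374 and 5430434F05Rik overlap Tet3. Symbols and exon lengths came from GENCODE M21 (GRCm38), which named 91.4% and 91.2% of the gene IDs. Both tables hold 56854 shared IDs, and 0 columns lacked a sample.

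Counts were filtered with filterByExpr, scaled by TMM within each table and tested with edgeR 4.0.16 (R 4.3.3, limma 3.58.1), 2-sided, with Benjamini-Hochberg adjustment over all genes tested and a threshold of 0.05. CPM on the log2 scale used a prior count of 2. DESeq2 1.42.0 and the other settings are given in the closing section. Permutation tests used 100000 resamples in Python 3.11.15 (scipy 1.17.1), or exact enumeration within groups of 8. Groups came from the sample titles, and replicates were numbered in accession order. Each title names another mouse, and p-values measure the spread between tumours. The procedures were tested on simulated counts. The 7 genes and the lists were chosen with earlier results of these data known. The 7 genes, Mki67, the targeted genes, up to 4 genes per list and direction and the 3 most similar genes per member were named by rule. The 21 pairs, and the removal of control replicates 12 and 13, were added after the values were seen.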

Additional observations from a re-analysis of the deposited data

Results flagged for a closer look

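Of 40 groups of 4 to 10 tumours tested for a tumour that stands away from its group, over the 7 genes and Mki67, 3 held one, and chance gives about 1 in 20. Dnmt3a was at 354.2 CPM in hSS2 Pbrm1-fl replicate 3, where the other 7 tumours had 241 to 290 CPM, and the gap to the nearest took 0.563 of the group's range against a critical value of 0.526. Tet2 was at 213.8 CPM in the same tumour, where the others had 133 to 167 CPM (0.578 of the range). Dnmt3b was at 23.7 CPM in hSS2 Arid1a-fl replicate 1, where the others had 9.64 to 13.6 CPM (0.716 of the range). That tumour also had the highest Dnmt1 (323 CPM), Uhrf1 (177 CPM) and Mki67 (799 CPM) of its group.

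The Pbrm1-fl effect on Tet3 differed between the backgrounds by -0.86 on the log2 scale (hSS1 minus hSS2, edgeR adjusted p = 0.0144), with 4 of 4 hSS1 Pbrm1-fl tumours below all 5 hSS1 controls and 6 of 8 hSS2 Pbrm1-fl tumours above the hSS2 control median. The hSS1 Pbrm1-fl mice were numbered in a single range, which holds 3 of the 5 hSS1 controls, and against those 3 the Tet3 difference was -0.68.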

How the results depend on the processing

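The number of the 7 genes called in Arid1a-fl tumours, 1, was 2 with DESeq2 and 2 against controls of the same mouse number range (Dnmt1 and Tet2 in both), 0 without a filter on low counts, 0 without control replicates 12 and 13, and 0 with the same range and that removal together, and it ran from 0 to 2 when 1 tumour was left out. The count of 0 in hSS1 Pbrm1-fl tumours was 1 with DESeq2 (Tet3), the count of 1 for the difference between backgrounds was 0 against controls of the same range, and the count of 0 for hSS1 slopes was 2 with DESeq2. The other counts kept within 1.5-fold, among them the 5 slopes called in hSS2 (4 to 6 without 1 tumour) and the 6 of 7 correlations with a permutation p under 0.05 (5 without control replicates 12 and 13, where Dnmt3a and Tet2 dropped out and Tet3 came in). Of 357 single-gene values under other settings, 321 kept their direction and side of the threshold, 9 lost a call, 8 gained one and 19 changed sign, and without 1 tumour these were 1409, 20, 13 and 42 of 1484. The cause was not tested.

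None of the values that changed sign was called in any setting. Against controls of the same range they were Dnmt3b in hSS2 Pbrm1-fl (-0.28, and -0.28 without control replicates 12 and 13 as well), Dnmt1 in hSS1 Pbrm1-fl (-0.17) and Dnmt3b between backgrounds (0.12), and with the same range and that removal together Tet1 in Arid1a-fl (-0.13). Without control replicates 12 and 13 they were Dnmt3b in Pbrm1-fl (-0.077) and, in Arid1b-fl, Uhrf1 (-0.023), Dnmt3b (-0.064), Tet1 (-0.090) and Tet2 (0.046). With the muscle score as a covariate they were Dnmt3b in hSS2 Pbrm1-fl (-0.0068), Tet1 (-0.011) and Tet3 (-0.014) in Arid1b-fl, Dnmt1 in hSS1 Pbrm1-fl (-0.041), and the hSS1 slopes of Dnmt3a (0.16), Dnmt3b (-0.11) and Tet2 (0.12). With Mki67 as a covariate they were Dnmt1 (0.11) and Dnmt3b (0.016) between backgrounds. Leaving out 1 tumour gave, in Arid1b-fl, -0.057 to 0.062 for Tet3, -0.023 to 0.33 for Uhrf1, -0.022 to 0.10 for Dnmt3b and -0.063 to 0.15 for Tet1, and in hSS2 Pbrm1-fl -0.026 to 0.091 for Dnmt3b. It gave -0.33 to 0.023 for Tet1, -0.12 to 0.19 for Dnmt1 and -0.56 to 0.037 for Dnmt3b in hSS1 Pbrm1-fl, and hSS1 slopes of -0.19 to 0.23 for Tet2, -0.39 to 0.11 for Dnmt3a, -0.11 to 0.10 for Tet1 and -0.15 to 0.25 for Dnmt3b.

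No paired analysis was made, because the labels name no litter or shared day. The study used littermate controls, and some control and floxed mice have neighbouring numbers in the titles. Nearness of numbers names no litter, and pairs built on it were not tested. Controls of the same mouse number range, a broader match, are given above. All 7 genes had reads in every tumour, so none of these values rests on a count of 0.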
